A study of Mus musculus with 9 samples.

Results

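Contractile genes encode the actins, myosins and actin-binding proteins with which smooth muscle cells and myofibroblasts pull on their surroundings. Their transcripts were followed in cultured calvarial cells of newborn mice with and without IRE1. The set was chosen by gene symbol and held Acta2, Actg2, Tagln, Cnn1, Cald1, Tpm1, Tpm2, Myl9, Myh11 and Srf. All 10 were found among the 25860 genes of the count table, and all 10 passed the filter on low counts that left 13712 genes for testing.

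The study compared 5 IRE1KO with 4 WT libraries to ask what loss of IRE1, a stress sensor of the endoplasmic reticulum encoded by Ern1, changes in cells of the osteoblast lineage. Per the labels, both groups consisted of Osx1-Cre cells, named for a Cre recombinase under the Osx1 promoter; Osx1, or osterix, is a transcription factor that commits cells to this lineage. They were sorted from the calvariae, the skull roof bones, of pups aged 2 to 4 days. Cells of 3 to 5 pups were pooled into each biological replicate, grown with 10% serum and harvested at 90% confluence. The sources used here do not give the IRE1KO and WT alleles, the strain or the mark used for the sort.

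In smooth muscle, thin filaments of alpha and gamma actin slide on myosin, while tropomyosin, caldesmon, calponin and transgelin lie along the actin and regulate or stabilise it. Most of these genes are switched on by serum response factor (SRF), which binds a short promoter element called the CArG box. Its partners are myocardin, found in muscle, or the myocardin-related factors MRTF-A and MRTF-B, which enter the nucleus when free actin is taken up into filaments. In bone and sutures, Acta2 marks vascular mural cells and a population of osteoprogenitors, and cultured mesenchymal cells commonly switch it on when they spread on plastic.

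Promoter sequences of 3 of the genes are shown because they carry the element through which SRF acts and because their transcripts are described together below. Each sequence holds the 250 bases before the RefSeq start on GRCm38.p6, 5′ to 3′ in lower case. Capitals mark CArG boxes, taken as 2 C, 6 A or T and 2 G, with at most 1 departure from that pattern.
Acta2 (chr19:34255374-34255623, minus strand): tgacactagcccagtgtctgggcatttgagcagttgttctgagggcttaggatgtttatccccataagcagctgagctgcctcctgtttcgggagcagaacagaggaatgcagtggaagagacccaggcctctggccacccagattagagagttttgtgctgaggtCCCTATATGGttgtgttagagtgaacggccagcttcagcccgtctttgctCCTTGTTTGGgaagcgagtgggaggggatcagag
Srf (chr17:46556163-46556412, minus strand): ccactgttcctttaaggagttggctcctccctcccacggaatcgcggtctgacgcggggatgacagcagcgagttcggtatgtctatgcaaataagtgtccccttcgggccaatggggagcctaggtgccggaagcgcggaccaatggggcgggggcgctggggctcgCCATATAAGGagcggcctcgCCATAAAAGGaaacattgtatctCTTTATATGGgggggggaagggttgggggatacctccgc
Myl9 (chr2:156775214-156775463, plus strand): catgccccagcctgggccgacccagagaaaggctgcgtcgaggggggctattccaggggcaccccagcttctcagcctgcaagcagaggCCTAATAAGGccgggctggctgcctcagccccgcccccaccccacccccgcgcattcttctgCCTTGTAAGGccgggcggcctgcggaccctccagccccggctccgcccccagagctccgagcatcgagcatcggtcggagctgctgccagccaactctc

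Boxes were searched in these bases and the 50 that follow, in 300-base windows. The RefSeq table held promoters of 7 of the 10 genes, without Tagln, Myh11 and Actg2. In GENCODE, Acta2 reaches to 34255590, Srf reaches to 46556175 and Myl9 starts at 156775420, each inside the stretch shown for it. An exact box was found in 2 of the 7, Srf (2 boxes) and Myl9 (1 box), against 1.81% of 27025 genes with a promoter in the table. With up to 1 departure a box was found in 5 of 7 (Acta2, Srf, Myl9, Tpm1 and Cald1), against 23.8% of all genes, and in neither Cnn1 nor Tpm2. The pattern reads the same on both strands. In Acta2 the boxes CCCTATATGG and CCTTGTTTGG began 84 and 34 bases before the start, each with 1 departure. In Srf, whose product is the factor itself, CCATATAAGG and CCATAAAAGG began 82 and 62 bases before the start. A match describes letters in these windows, not binding.

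The libraries held 18784636 to 22028075 counts. WT libraries differed from each other more than IRE1KO libraries did, with a variance between library pairs of 15.5 to 114 times sampling noise in WT and 1.92 to 10.1 times in IRE1KO. WT library 4 stood apart, at 56.7 on a first principal component (45.9% of the variance) on which the others lay between -23.4 and 15.1. Ern1 was at 49.8 to 55.8 CPM in IRE1KO and 41.5 to 54.2 CPM in WT, and a total per gene does not show a lost exon, so it does not check the labels. Per the labels all libraries were prepared and sequenced as 1 batch. The labels do not name litters or culture dates, whose part in the results was not tested. Levels are in CPM, a gene's count scaled to a common library size after TMM normalization.

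Contractile transcripts were abundant in all 9 libraries. Together the 10 genes took 0.63% to 1.24% of all counts, and Acta2 alone ranked between 6th and 22nd among all genes of a library. Per kilobase of exon, which allows genes to be compared, Acta2, the alpha actin of vascular smooth muscle, had 1470 ± 54.6 CPM per kb in IRE1KO (SD, n = 5) and 1360 ± 495 in WT (SD, n = 4). On the same scale the cytoplasmic beta actin Actb had 930 ± 50.1 in IRE1KO and 935 ± 204 in WT. Tagln (transgelin) followed with 428 ± 38.7 CPM per kb in IRE1KO, then Myl9 with 288 ± 15.1, Actg2 with 272 ± 15.9 and Tpm2 with 252 ± 9.46. The ranges of Myl9 and Actg2 overlapped, as did those of Actg2 and Tpm2. Tpm1 (183 ± 5.99), Cald1 (150 ± 0.986) and Cnn1 (103 ± 13.6) came next, each without overlap with its neighbours in IRE1KO. Srf (22.8 ± 0.865) and Myh11 (20.4 ± 1.89) were lowest and overlapped. In WT the spread was wider and neighbours overlapped throughout, except that Acta2 stayed above Tagln and Cnn1 above Myh11. Lengths are unions of all GENCODE exons, so that genes with many alternative exons, such as Cald1 and Tpm1, are scaled by more than 1 transcript's length.

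The label of these genes as those of smooth-muscle-like cells was set beside the levels of smooth muscle markers. Myh11, itself a member of the set, encodes the myosin heavy chain of differentiated smooth muscle and was present at 84.6 to 334 CPM. Outside the set, Lmod1 (leiomodin, an actin nucleator) was at 55.5 to 93.7 CPM and Smtn (smoothelin) at 112 to 167 CPM. Des (desmin, a muscle intermediate filament) was at 20.3 to 51.1 CPM, Synpo2 at 30.2 to 46.4 CPM and Kcnmb1 at 0.888 to 8.58 CPM. Myocd, which encodes myocardin, was at 0.261 to 1.89 CPM, whereas Mrtfa, encoding MRTF-A, averaged 97.0 ± 5.06 CPM in IRE1KO (SD, n = 5) against 98.4 ± 10.5 CPM in WT (SD, n = 4). Mrtfb averaged 86.1 ± 5.16 CPM in IRE1KO and 81.2 ± 4.00 CPM in WT. The cultures thus held contractile transcripts with little Myocd. Bulk counts do not show which cells carried them, and fewer contractile cells cannot be told apart from less contractile RNA per cell.

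Both smooth muscle actins had nearly level values in IRE1KO and scattered widely in WT. Acta2 (ENSMUSG00000035783, chromosome 19 from 34241090 to 34255590, GRCm38) was at 3229.9, 3163, 3125, 3432 and 3199 CPM in IRE1KO libraries 1 to 5 and at 4461, 3103, 2288 and 2053 CPM in WT libraries 1 to 4. WT library 1 was above every IRE1KO library and the other 3 WT libraries below every one. Actg2, the gamma actin of visceral smooth muscle (ENSMUSG00000059430, chromosome 6 from 83512905 to 83536265), was at 439, 425, 399, 455 and 399 CPM in IRE1KO and at 650.1, 439.6, 296 and 231 CPM in WT. Here WT library 2 lay inside the IRE1KO range. The longest coding sequences of Acta2 and Actg2 were 84.4% identical, with a longest identical run of 29 bases, and those of Acta2 and Actg1 shared a run of 56 bases, so reads could be shared between actins.

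**Figure D1:**
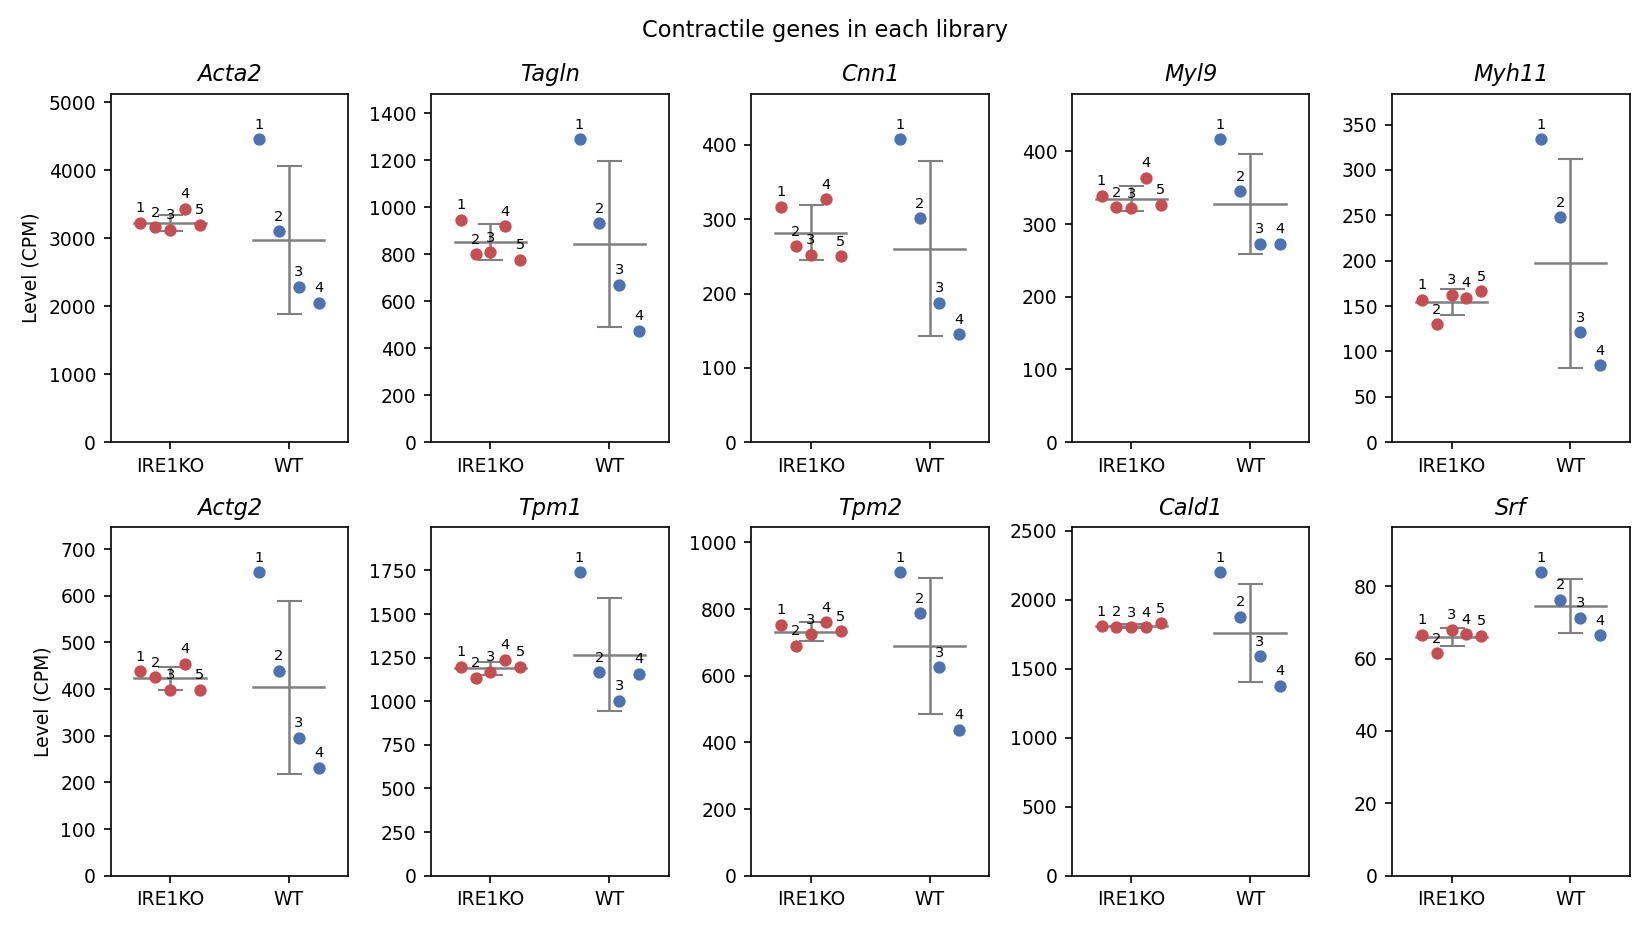
Level in CPM (y axis, from 0) of each contractile gene in every library, with IRE1KO in red and WT in blue; numbers are library numbers, horizontal lines group means and bars 1 SD (n = 5 and n = 4). WT library 1 was the highest library for all 10 genes, and the IRE1KO points lie close together.

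The proteins that lie along actin filaments followed the same arrangement. Tagln (ENSMUSG00000032085, chromosome 9 from 45929619 to 45936058) was at 947, 802, 809.7, 921 and 777 CPM in IRE1KO and at 1291, 932, 671 and 474 CPM in WT. Cnn1, encoding calponin, an inhibitor of myosin's ATPase (ENSMUSG00000001349, chromosome 9 from 22099216 to 22109630), was at 317, 263, 252, 327 and 250.1 CPM in IRE1KO and at 408, 301, 187 and 145 CPM in WT. For both genes WT library 1 was highest, WT library 2 fell inside the IRE1KO range and WT libraries 3 and 4 were below it. Cald1, encoding caldesmon, which blocks myosin from actin (ENSMUSG00000029761, chromosome 6 from 34598500 to 34775473), was at 1809, 1802, 1800.5, 1802 and 1829 CPM in IRE1KO and at 2196, 1874, 1589.5 and 1376 CPM in WT. Its IRE1KO libraries spanned a ratio of 1.02 from lowest to highest and its WT libraries 1.6. Of the exon bases of Tagln, 5.43% overlap Pcsk7 on the opposite strand (40.14 to 44.98 CPM) and 62.4% overlap Gm48529, also opposite and not analysed here. The kit marks strand, but whether the counting used it is not given, so reads of these genes may not be told apart.

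Tropomyosins, coiled-coil proteins that set which proteins reach the filament, differed from each other in WT library 4. Tpm1 (ENSMUSG00000032366, chromosome 9 from 67022590 to 67049406) was at 1198, 1134, 1170.3, 1239 and 1198 CPM in IRE1KO and at 1738, 1165.5, 1004 and 1158 CPM in WT. Tpm2 (ENSMUSG00000028464, chromosome 4 from 43514711 to 43523765) was at 754, 691, 724, 760.1 and 734 CPM in IRE1KO and at 910.0, 788, 625 and 439 CPM in WT. WT library 4 was the lowest of all libraries for Tpm2 but lay inside the IRE1KO range for Tpm1, which was lowest in WT library 3. Both genes also make non-muscle isoforms, which a count per gene does not separate.

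The myosin subunits had unequal spreads. Myl9, the regulatory light chain whose phosphorylation starts contraction (ENSMUSG00000067818, chromosome 2 from 156775420 to 156781658), was at 339, 323, 322, 364 and 326 CPM in IRE1KO and at 417, 346, 273 and 273 CPM in WT. Myh11 (ENSMUSG00000018830, chromosome 16 from 14194535 to 14291372) was at 157, 130.0, 162, 159 and 166 CPM in IRE1KO and at 334, 248, 121 and 84.6 CPM in WT. Its highest WT library exceeded the lowest by a ratio of 3.95, against 1.53 for Myl9. WT libraries 1 and 2 both lay above every IRE1KO library for Myh11, and WT libraries 3 and 4 below every one.

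Srf had the narrowest range in WT. It (ENSMUSG00000015605, chromosome 17 from 46548329 to 46556175) was at 66.6, 61.5, 68.0, 66.8 and 66.4 CPM in IRE1KO and at 83.8, 76.3, 71.3 and 66.5 CPM in WT. WT libraries 1 to 3 were above every IRE1KO library, and WT library 4 lay within the IRE1KO range. For the other 9 genes every IRE1KO library lay between the lowest and the highest WT library.

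None of the 10 contractile genes passed the threshold of 0.05 between IRE1KO and WT (quasi-likelihood test of edgeR, p adjusted by Benjamini-Hochberg over all genes), where 0.634% of the 13712 tested genes were called. DESeq2 and limma voom called none of the 10 either. At an unadjusted p under 0.05 in edgeR there was 1 of the 10, Srf, against 16.5% of all genes. The groups separated without overlap for 0 of the 10 genes, against 6.93% of all genes. The median log2 fold change of IRE1KO over WT was 0.037 for the 10 genes and -0.005 for all tested genes.

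The intervals show what size of difference the fit allowed. It took 1 estimate of variability per gene for both genotypes, although the SD of log2 CPM was larger in WT for all 10 genes. The intervals may therefore be too narrow, that of Srf included. For Acta2 the log2 fold change was 0.12 ± 0.20 SE (95% interval -0.33 to 0.57, adjusted p = 0.807, edgeR), for Tagln 0.016 ± 0.24 SE (-0.53 to 0.57) and for Cnn1 0.11 ± 0.27 SE (-0.49 to 0.72). Actg2 (0.066, interval -0.51 to 0.64) and Tpm2 (0.086, -0.31 to 0.48) had similarly wide intervals. Those of Cald1 (0.040, -0.22 to 0.30), Myl9 (0.033, -0.24 to 0.31) and Tpm1 (-0.092, -0.40 to 0.22) were narrower. Myh11 had the widest, at -0.35 ± 0.35 SE (-1.12 to 0.43, adjusted p = 0.652, edgeR). Srf was at 74.5 ± 7.40 CPM in WT (SD, n = 4) and 65.9 ± 2.50 CPM in IRE1KO (SD, n = 5), a log2 fold change of -0.18 ± 0.065 SE (-0.32 to -0.031, unadjusted p = 0.0226, adjusted p = 0.225, edgeR).

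The sign of 9 of the fold changes depended on single WT libraries. Without WT library 4 the value of Acta2 became -0.024, of Cnn1 -0.084, of Actg2 -0.13, of Myl9 -0.044, of Tagln -0.18, of Tpm2 -0.080 and of Cald1 -0.061. Without WT library 3 it was negative for Tagln, Cnn1, Myl9, Actg2 and Cald1, and for Tagln also without IRE1KO library 1 or 4. Without WT library 1 Myh11 went to 0.037, Tpm1 to 0.099 and Acta2 to 0.38 (adjusted p = 0.0857, edgeR), and the median over the 10 genes was 0.21. Srf stayed negative under all 16 alternatives, from -0.23 to -0.12, with a smallest adjusted p of 0.0613 in the fits run.

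**Figure D2:**
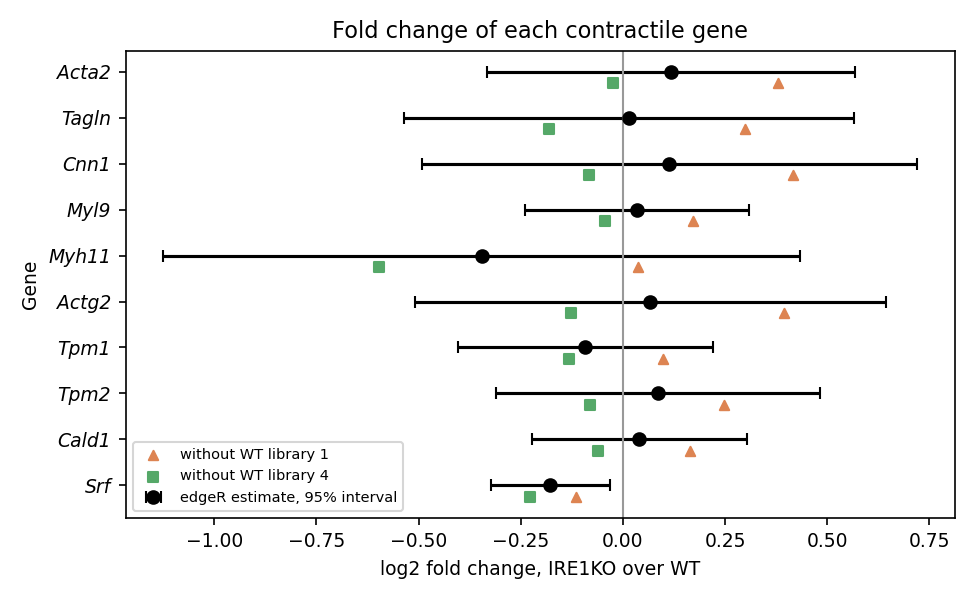
Log2 fold change of IRE1KO over WT for each contractile gene (x axis), as black points with 95% intervals from edgeR, with the values without WT library 1 (triangles) and without WT library 4 (squares). All intervals but that of Srf (-0.32 to -0.031) contain 0, and removal of WT library 1 moved every estimate to the right of its value without WT library 4.

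The contractile genes were spread widely between WT libraries and little between IRE1KO libraries. The SD of log2 CPM was larger in WT than in IRE1KO for 10 of the 10 genes, as it was for 82.7% of all tested genes. Its median over the 10 genes was 0.481 in WT and 0.0648 in IRE1KO, beside 0.165 and 0.0775 over all tested genes. Their median spread was thus near that of all genes in IRE1KO and above it in WT. Without WT library 1 the WT median was 0.367, and without library 2, 3 or 4 it was 0.566, 0.559 or 0.441 (0.119 to 0.185 over all genes), omissions chosen after seeing the data. Counts of the 10 genes ran from 1202 to 87337 per library, so that counting error was at most 2.88% of a value.

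Within WT the genes ranked the libraries alike. WT library 1 was the highest for 10 of 10, and the WT libraries came in the order 1, 2, 3, 4 for 9 of 10, Tpm1 being the exception. For how many of all tested genes either holds was not counted. On the first principal component WT libraries 1 to 4 lay at -23.4, -23.4, 15.1 and 56.7, so many other genes may share the order. Averaged over the 10 genes, the log2 CPM relative to each gene's mean was 0.54 in WT library 1, 0.16 in library 2, -0.29 in library 3 and -0.54 in library 4. The IRE1KO libraries lay between -0.049 and 0.11. Among them IRE1KO library 4 was highest for 6 of the 10 genes.

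**Figure D3:**
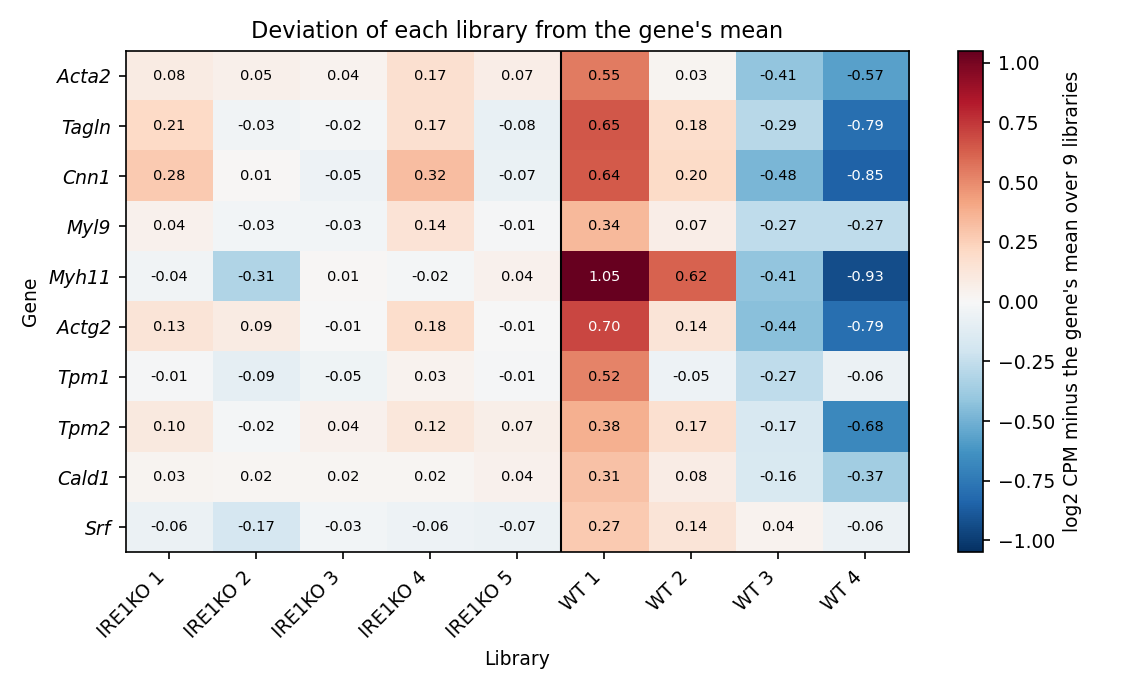
Log2 CPM of each gene (rows) in each library (columns) minus the gene's mean over the 9 libraries; red is above and blue below that mean, and the black line divides IRE1KO from WT. WT library 1 is above the mean in all rows (0.27 to 1.05), WT library 4 is below it in all rows, and the IRE1KO columns are pale.

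Across the 9 libraries 8 of the 9 other genes correlated with Acta2 (log2 CPM, exact permutation test, two-sided, adjusted over 9 relations by Benjamini-Hochberg). The test treats all libraries as interchangeable, whereas the SD of log2 CPM of Acta2 was 0.502 in WT and 0.0526 in IRE1KO. The r values thus rest mainly on the WT libraries, and their p may be too small. The share of all genes that correlate with Acta2 was not computed. With the mean of the 10 genes, 3.26% of the other genes compared had an r over 0.9. Pearson's r was 0.987 for Actg2 (raw p = 0.000204, adjusted p = 0.000918, exact permutation), with a Spearman's rank coefficient of 0.783 (adjusted p = 0.0388, exact permutation). It was 0.967 for Myl9 (Spearman 0.833), 0.967 for Cald1 (Spearman 0.633), 0.96 for Cnn1 (Spearman 0.85), 0.947 for Tagln (Spearman 0.733) and 0.918 for Tpm2 (Spearman 0.733). For these the adjusted exact permutation p of r was 0.000918 to 0.00262, and that of Spearman's coefficient was 0.0248 to 0.0978, the largest for Cald1. Myh11 had an r of 0.857 (adjusted p = 0.00801, exact permutation) and a Spearman coefficient of 0.567 (adjusted p = 0.136, exact permutation). Tpm1 had an r of 0.775 (adjusted p = 0.0251, exact permutation) and a Spearman coefficient of 0.85. The r of Tpm1 lost its call without WT library 1 (0.63) or WT library 3 (0.71).

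Srf did not follow Acta2 over all libraries, with an r of 0.416 (adjusted p = 0.248, exact permutation) and a Spearman coefficient of 0.1. After each genotype's mean was subtracted, the r of Srf with Acta2 was 0.901 and those of the other 8 genes were 0.87 to 0.989. These adjusted values rest mainly on the 4 WT libraries, since the IRE1KO libraries hardly differed. Correlations within a genotype were not computed.

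WT libraries 1 and 4 were farthest from the median of Acta2. Without both, r with Acta2 was 0.969 for Tpm1, 0.957 for Actg2, 0.935 for Myl9 and 0.879 for Cnn1, and these 4 passed (adjusted p = 0.0321 to 0.033, exact permutation, 7 libraries). Tagln (0.791), Tpm2 (0.838) and Cald1 (0.9) did not pass, with adjusted exact permutation p of 0.0792 to 0.162. The relation of Myh11 fell to 0.446 and so rested on those libraries, while that of Srf was -0.375. Over all 45 pairs of the 10 genes the median r was 0.895, from 0.416 to 0.987.

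**Figure D4:**
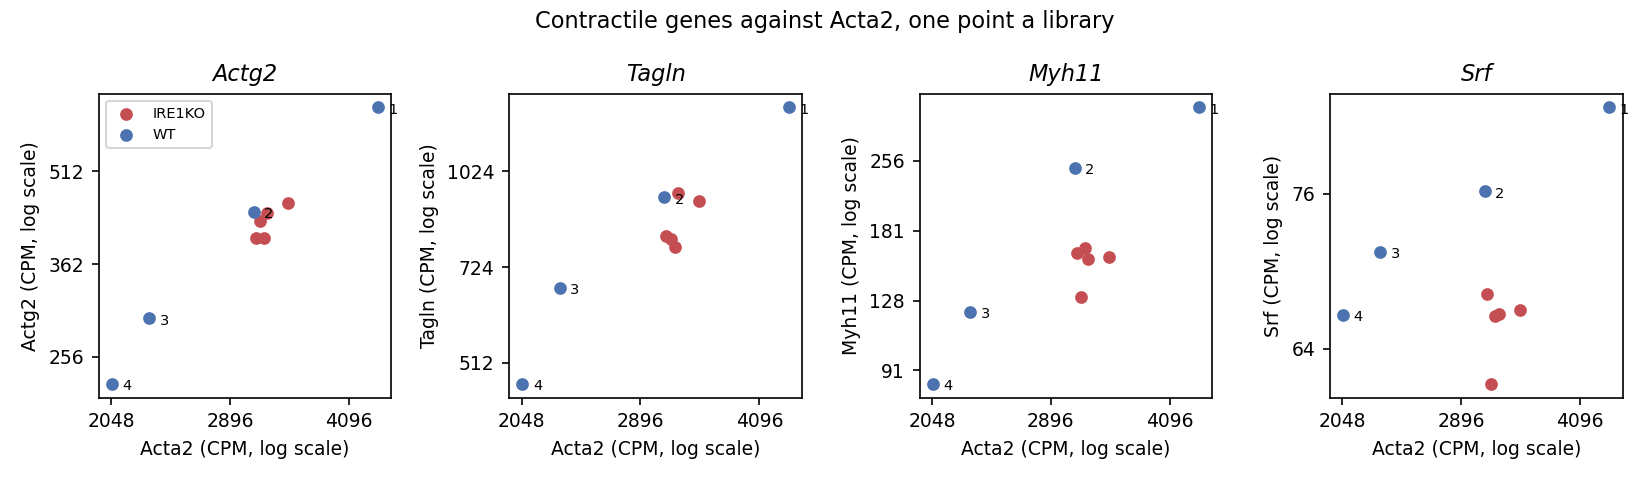
Levels of Actg2, Tagln, Myh11 and Srf (y axes, CPM, log scale) against Acta2 (x axis, CPM, log scale), 1 point a library, IRE1KO in red and WT in blue with WT library numbers. Actg2 lies near 1 line with Acta2 (r = 0.987), WT library 2 is above the IRE1KO points for Myh11 (248 CPM), and for Srf most WT points lie above the IRE1KO points.

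Ratios within a library, which need no scaling between libraries, showed where the genes did not move in step. Myh11 counts were 7.49% and 7.99% of Acta2 counts in WT libraries 1 and 2, against 5.29% and 4.12% in WT libraries 3 and 4 and 4.11% to 5.2% in IRE1KO. The ratio of Myh11 to Myh9, the main non-muscle myosin heavy chain, was 0.127 and 0.106 in WT libraries 1 and 2, 0.0578 and 0.045 in libraries 3 and 4, and 0.0573 to 0.0718 in IRE1KO. Acta2 counts were 0.96, 0.797, 0.647 and 0.707 times the sum of Actb and Actg1 in WT libraries 1 to 4 and 0.801 to 0.931 times in IRE1KO. Actg2 counts stayed between 11.3% and 14.6% of Acta2 counts in all libraries.

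Outside the set, a calponin and a stress fibre adaptor had the pattern most like it. Over the 9 libraries the highest Pearson's r with the mean of the 10 genes, among 10406 genes of at least 5 CPM, belonged to Cnn2 (0.985), the calponin of non-muscle cells, and Pdlim5 (0.983), the adaptor. Nipal4 (0.98), a magnesium transporter, Taldo1 (0.978), an enzyme of the pentose phosphate pathway, Jph2 (0.978), a protein that ties the endoplasmic reticulum to the plasma membrane in muscle, and Csrp1 (0.978), a LIM protein of smooth muscle, completed the 6 closest. Csrp1 was at 366 CPM in WT library 1 and 224 CPM in WT library 4, with 287 to 295 CPM in IRE1KO, and Nipal4 was at 17.9 and 4.86 CPM in those WT libraries. The 6 are the extremes of many genes that share the same libraries, and 3.26% of the 10406 genes had an r over 0.9.

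Relatives of the contractile genes that serve other cells were in part alike. Of 15 tested relatives none passed in edgeR. An unadjusted p under 0.05 was found for 5 (1 higher, 4 lower in IRE1KO), beside 16.5% of all genes. The median log2 fold change of the relatives was -0.0082. Of 13 with at least 5 CPM, 5 had an r over 0.9 with the mean of the contractile genes: Cnn2, Myl12a (0.952), Myh9 (0.937), Actb (0.933) and Actg1 (0.922), the last 4 being a regulatory light chain, a myosin heavy chain and the cytoplasmic actins. Myh10, a non-muscle myosin heavy chain, was at 360.4 to 389 CPM in IRE1KO and 404 to 489 CPM in WT (log2 fold change -0.23 ± 0.059 SE, adjusted p = 0.120, edgeR), and DESeq2 called it. Tagln3 (-0.52 ± 0.17 SE), a neuronal transgelin, had the next smallest p of the list. Myl12b, a light chain 86.4% identical to Myl9 in coding sequence, ran opposite to the contractile genes (r = -0.85) and was called without WT library 1.

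Of 23 further genes of the contractile apparatus none passed in edgeR. An unadjusted p under 0.05 was found for 6, all lower in IRE1KO, beside 16.5% of all genes. DESeq2 called Tln1 and Ldb3, as did edgeR without WT library 4. The median log2 fold change was -0.16. Irag1, a regulator of calcium release, was at 20.5 to 24.9 CPM in IRE1KO and 25.8 to 37.8 CPM in WT (-0.42 ± 0.12 SE, adjusted p = 0.163, edgeR), and Ldb3, a Z-disc protein, had a value of -0.86 ± 0.26 SE (adjusted p = 0.172, edgeR). Of 21 with at least 5 CPM, 6 had an r over 0.9 with the mean of the contractile genes, Actn1 (alpha-actinin, 0.974) among them. Synm (r = -0.739), Smtn (-0.652) and Csrp2 (-0.632) went the other way, and Mylk had an r of 0.00603. Smtn was at 167 CPM in WT library 4 and 123 CPM in WT library 1.

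Of 12 tested genes that respond to MRTF, YAP or TGF-beta, none passed in edgeR or DESeq2. Only Edn1 (endothelin 1) had an unadjusted p under 0.05, beside 16.5% of all genes. Its log2 fold change was -0.60 ± 0.26 SE, and edgeR called it without WT library 4. Amotl2, a YAP target, had a value of 0.25 ± 0.16 SE and was called without WT library 1. Ccn2, the connective tissue growth factor, was at 1501, 991, 632 and 274 CPM in WT libraries 1 to 4 and at 607 to 675 CPM in IRE1KO. WT libraries 1 and 2 lay above every IRE1KO library, WT library 3 among them and WT library 4 below. Ankrd1 (0.948), Ccn2 (0.933), Fhl1 (0.924) and Thbs1 (0.923) had an r over 0.9 with the mean of the contractile genes.

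Markers of other cells were set beside the contractile pattern, and their part in it was not tested. The summed level of 10 smooth muscle markers, 4 of them members of the set, was 4184 to 4629 CPM in IRE1KO and 2797 to 6166 CPM in WT. Most of that sum came from Acta2, so it largely repeats the set. The 4 markers outside the set with at least 5 CPM had a median r of 0.68 with the mean of the contractile genes. Their r ran from -0.652 (Smtn) to 0.788 (Synpo2). The summed level of 9 pericyte markers was 706 to 755 CPM in IRE1KO and 652 to 819 CPM in WT, Higd1b being at 0 in all libraries and Kcnj8 under 1 CPM. None of the smooth muscle markers (2 with an unadjusted p under 0.05) or of 7 tested pericyte markers passed in edgeR. Mcam (log2 fold change -1.05 ± 0.25 SE), which DESeq2 called, and Pdgfrb (0.20 ± 0.076 SE) were the 2 pericyte markers with an unadjusted p under 0.05. Over all genes the share at that p was 16.5%. The 6 pericyte markers with at least 5 CPM had a median r of 0.312 with the mean of the contractile genes, from -0.9 (Notch3) to 0.519 (Pdgfrb). Skeletal muscle markers summed to 3.32 to 17.5 CPM over 15 genes, with Myf5 and Myf6 at 0 and Myod1, Myog and Pax7 under 1 CPM. None of the 4 tested passed in edgeR or DESeq2, nor at an unadjusted p under 0.05 (log2 fold changes of -0.76 ± 0.36 SE for Mylpf and -1.79 ± 0.96 SE for Myh3).

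The 8 osteoblast lineage markers summed to 40663 to 45304 CPM in IRE1KO and to 31910.4, 29364, 34432 and 57514 CPM in WT libraries 1 to 4. WT library 4, lowest in most contractile genes, had the highest sum, most of it from the collagen genes Col1a1 and Col1a2. It was the highest library for both, and for Runx2 (75.1 CPM), Alpl (25.7 CPM) and Ibsp (3.92 CPM). It was not the highest for Sp7, Sparc or Bglap. None of 7 tested passed in edgeR. Ibsp (log2 fold change -2.06 ± 0.58 SE) and Sparc (0.25 ± 0.079 SE) had an unadjusted p under 0.05, beside 16.5% of all genes. DESeq2 called both. The 6 with at least 5 CPM had an r of -0.668 to -0.212 with the mean of the contractile genes. Endothelial markers summed to 7.97 to 11.8 CPM in IRE1KO and 8.67 to 21.5 CPM in WT over 6 genes, with Emcn and Vwf under 1 CPM, and 1 of 4 tested, Pecam1, fell, from 0.719 ± 0.167 to 0.174 ± 0.0902 CPM (adjusted p = 0.0497, edgeR). DESeq2 also called Pecam1, while limma voom and the fit with the replicate number as a block did not. Macrophage markers summed to 45.04 to 100.7 CPM in IRE1KO and 23.97 to 92.8 CPM in WT over 5 genes, of which none passed in edgeR or DESeq2 or had an unadjusted p under 0.05 (log2 fold changes of 0.19 ± 0.34 SE for Csf1r and 0.17 ± 0.37 SE for Ptprc).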

How the data were processed

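Polyadenylated RNA of 9 cultures (5 IRE1KO, 4 WT) was sequenced from strand-marked libraries made in 1 batch, per the labels' protocols. The deposited values were raw counts per gene, not normalized. Per the submitters' processing notes, STAR and limma were used with mm10, with no version stated. How reads were counted, with which annotation and strand setting, is not stated in the labels. No row lacked a gene name, and some listed genes are not reported here.

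Counts were filtered with filterByExpr, scaled by TMM and tested with edgeR 4.0.16 (quasi-likelihood test, robust, genotype as the sole term) in R 4.3.3, with Benjamini-Hochberg adjustment over 13712 genes and a threshold of 0.05. SE is the log2 fold change divided by the square root of F, and intervals are 95%. Alternatives were DESeq2 1.42.0, limma 3.58.1 (voom), other scalings and filters, the replicate number as a block, and omission of each library. The edgeR fit was tested on simulated counts with equal variability in both genotypes, and the permutation test on independent random values. Neither simulation covered the wider spread of the WT libraries. Correlations used log2 CPM with a prior count of 2, in SciPy 1.17.1 (Python 3.11.15, pandas 2.3.3, NumPy 2.4.6). Coding sequences were aligned with Biopython 1.88, and figures were drawn with matplotlib 3.10.9. Positions and exon lengths were taken from GENCODE M21 (GRCm38, which is mm10) and promoters from RefSeq on GRCm38.p6.

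The members and lists were chosen with earlier results of these data known. Named genes were the 10 members, the 6 non-members of at least 5 CPM closest to their mean pattern, and in each other list the genes that passed or otherwise the 2 with the smallest p. Further genes were named after their values were seen.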

Additional observations from a re-analysis of the deposited data

Results flagged for a closer look

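In 20 groups of libraries (10 contractile genes, 2 genotypes) a single library stood far from the others of its group in 2 cases. Chance alone was taken to give about 1 in 20, which holds for independent groups. These groups shared libraries, and both cases were IRE1KO library 2, so they cannot be set against that rate. Whether they exceed chance was not tested. Myh11 was at 130.0 CPM there, against 157 to 166 CPM in the other IRE1KO libraries, and Srf was at 61.5 CPM, against 66.4 to 68.0 CPM. In both cases this library was the lowest of its group, and without it the log2 fold change of Srf had no unadjusted p under 0.05 in edgeR.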

How the results depend on the processing

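None of the 10 contractile genes was called under any of the 16 alternatives. Over all genes, the 87 calls became 46 with upper quartile scaling, 45 without a filter on low counts, 582 with DESeq2, 16 with limma voom, and 2 to 1192 when single libraries were left out (1192 without WT library 1, 399 without WT library 4, at most 8 without any other library). The cause was not tested. Neither the relatives nor the further contractile or responsive genes had calls in edgeR on all libraries. DESeq2 called 1 relative and 2 further contractile genes. Omission of single libraries gave 0 to 1 calls among relatives, 0 to 2 among further contractile genes and 0 to 1 among genes that respond to MRTF, YAP or TGF-beta. With the replicate block 0 genes were called over all genes. Same-numbered libraries had correlations of deviations of 0.151, -0.204, -0.194 and 0.473, and 2 of the 4 numbers matched their own best, so the numbers were not taken to pair the libraries. The count of genes correlated with Acta2 was 8, or 7 without WT library 1 or 3, and the r of Srf with Acta2 was -0.146 without WT library 1 and 0.537 without WT library 3. With 4 WT libraries of wide spread, the precision was limited by that spread and not by counting depth.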

Other observations

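Some genes ran opposite to the contractile genes. The 6 with the lowest Pearson's r with their mean over the 9 libraries, chosen after the values were seen, were Ahr (-0.988), Timeless (-0.987), Gpsm2 (-0.98), Slc1a5 (-0.979), Xkr5 (-0.977) and Kif2c (-0.976). Ahr encodes the aryl hydrocarbon receptor, Timeless a replication fork protein, Gpsm2 an organiser of the mitotic spindle, Slc1a5 a glutamine transporter and Kif2c a mitotic kinesin. Ahr was at 50.5, 64.2, 81.6 and 100.6 CPM in WT libraries 1 to 4 and at 66.0 to 77.8 CPM in IRE1KO. Kif2c was at 38.6, 45.7, 50.4 and 53.8 CPM in WT and at 43.8 to 46.6 CPM in IRE1KO. Of 10406 genes compared, 2.13% had an r under -0.9.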
